A study of Mus musculus with 5 samples.

Results

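The cytosolic ribosome of mammals is built from ribosomal RNA and a fixed set of ribosomal proteins, whose names begin with Rpl for the large subunit and Rps for the small one. Symbols of that form in the deposited count tables, together with the 3 stalk protein genes Rplp0, Rplp1 and Rplp2 and the gene Rpsa, gave 87 genes of the 18132 listed, after kinases of the Rps6k family were left out and at least 100 counted molecules over all labelled cells were required. All 87 were listed in all 4 tables, and all passed that minimum. They comprise 46 canonical large-subunit genes, 31 canonical small-subunit genes, 9 paralogs (Rpl3l, Rpl6l, Rpl7l1, Rpl10l, Rpl22l1, Rpl36al, Rpl39l, Rps27l and Rps27rt) and Rps19bp1, which codes for a binding partner of Rps19 and not for a ribosomal protein. The rule used symbols and abundance only, so the levels by cell type and day are not part of it. It was set, however, with earlier results of these data known.

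The cells were isolated from a hindlimb muscle, the tibialis anterior; all mice were C57Bl/6, and the labels name no transgene. Uninjured muscle (day 0) came from 4-month-old females in 2 sequencing runs that share 1 table. Injured muscle was taken 2, 5 or 7 days after injection of notexin (a phospholipase from snake venom that kills myofibres) from 7-month-old female, 4-month-old female and 4-month-old male mice in that order. The number of mice per library is not given in the labels. Muscle was digested with Collagenase D and Dispase II, red cells were lysed, live cells were sorted with Calcein-AM and PI, and 10x 3′ v2 libraries counted each mRNA by a unique molecular identifier (UMI). With 1 table per day there are no replicates, so no test between days was possible, and day, age, sex and library cannot be told apart.

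Tables held 5176, 4903, 2164 and 5680 labelled cells at days 0, 2, 5 and 7, with 22330278, 57723171, 5986701 and 40427212 UMIs and median depths of 3832.5, 9683, 2018 and 5991 UMIs per cell. Any pair of tables shared 9 to 40 cell barcodes, or 0.184 to 0.773% of the earlier day's. Cell types are the authors' labels; FAPs are fibro-adipogenic progenitors, the muscle's resident mesenchymal cells, and MuSCs stands for the label of muscle stem cells and progenitors. Some labels went against their defining markers. The day 2 "B cells" had a sum of 1.83 counts per 1000000 UMIs (cpm) over 3 B-cell markers against 42179 cpm over 3 dendritic markers. The day 0 "Platelets" had 33.0 cpm over 3 platelet markers and 2422 cpm over 4 endothelial ones, and the day 0 "Neural/Glial/Schwann cells" had 31890 cpm over 4 muscle fibre genes beside 3284 cpm of glial ones. The day 5 "Macrophages/APCs/T-cells" had more NK (1892 cpm) and T-cell (1091 cpm) than macrophage (250 cpm) marker RNA, and the day 7 MuSCs carried 4113 cpm over 4 macrophage markers. Macrophages/APCs had 45418 cpm of dendritic and 10718 cpm of macrophage markers at day 2 and 53121 and 1895 cpm at day 7, and the day 7 label Macrophages/APCs 2 had 30274 and 1282 cpm. Labels are used below as given.

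Ribosomal protein mRNAs are among the most abundant in any growing cell. Most belong to the TOP mRNAs, whose cap is followed by a C and a run of pyrimidines and whose translation is released by the kinase mTORC1 through the binding protein Larp1. Cells that enter growth and division are known to make more ribosomes, which calls on these genes, on the nucleolar biogenesis factors and on RNA polymerase I together.

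The start of the transcript is shown first for the genes whose paralogs or levels the results turn on. Each line gives 10 bases before and 20 bases from the RefSeq transcription start in GRCm38.p6, 5′ to 3′, and capitals mark a C followed by at least 4 pyrimidines that begins within 5 bases of the start.

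Rps27 (chr3:90213629-90213658, minus strand): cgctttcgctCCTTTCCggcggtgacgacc
Rps27rt (chr9:114982720-114982749, minus strand): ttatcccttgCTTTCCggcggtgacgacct
Rps27l (chr9:66946076-66946105, plus strand): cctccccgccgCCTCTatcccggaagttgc
Rpl22 (chr4:152325716-152325745, plus strand): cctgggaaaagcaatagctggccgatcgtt
Rpl22l1 (chr3:28805498-28805527, plus strand): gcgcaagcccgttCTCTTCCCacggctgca
Rpl36a (chrX:134585644-134585673, plus strand): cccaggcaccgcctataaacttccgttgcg
Rpl36al (chr12:69184048-69184077, minus strand): ccgtcgctcaggttcagttccgacttccgc
Rpl3l (chr17:24727816-24727845, plus strand): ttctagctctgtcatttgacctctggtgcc
Rpl39 (chrX:37085203-37085232, minus strand): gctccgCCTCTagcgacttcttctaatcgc
Rpl39l (chr16:10170218-10170247, plus strand): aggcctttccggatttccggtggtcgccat
Rpl12 (chr2:32961702-32961731, plus strand): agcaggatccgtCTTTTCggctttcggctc
Rpsa (chr9:120127756-120127785, plus strand): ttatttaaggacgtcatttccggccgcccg

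Rps27 and its near-copy Rps27rt share a run of 38 bases within the first 50 from their starts, and the tract of each stands directly before the same bases. Rpl22l1 has a tract while Rpl22 has none in the window, whereas Rpl39 has one and Rpl39l has none. By this letter rule (C, then at least 4 of C or T, on the transcript strand), 30 of the 66 members in the table (45.5%) had a tract, against 5718 of all 27025 genes (21.2%). The share was 27 of 57 (47.4%) among canonical members and 3 of 8 (37.5%) among paralogs. Among 18 other TOP mRNAs it was 10 (55.6%), among 28 biogenesis factors 21.4%, and among 69 genes for mitochondrial ribosomal proteins 24.6%. A match is a description of these letters and depends on where the annotation puts the start.

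The members took 14.7% of all UMIs at day 0, 19.1% at day 2, 22.6% at day 5 and 16.6% at day 7. Behind those totals, the share ran from 8.84% to 33.5% over the 29 label and day combinations with at least 50 cells. At day 0 it was lowest in the Neural/Glial/Schwann label (9.30%), followed by smooth muscle (10.97%), tenocytes (11.40%) and endothelial cells (12.37%), and highest in FAPs (15.03%), platelets (15.05%) and immune cells (17.81%). At day 2 it was 16.02% in the main immune label, 19.38% in endothelial cells, 24.41% in Macrophages/APCs (antigen-presenting cells), 26.48% in FAPs, 27.39% in the label B cells and 29.00% in MuSCs. At day 5 it was 15.84% in mature muscle, 17.14% in endothelial cells, 19.51% in FAPs, 21.26% in anti-inflammatory macrophages, 31.26% in Macrophages/APCs/T-cells and 33.52% in NK cells. At day 7 mature muscle had 8.84%, anti-inflammatory macrophages 12.66%, tenocytes 15.22%, endothelial cells 15.85%, FAPs 16.29%, the label Macrophages/APCs 2 18.18%, activated FAPs 19.31%, Macrophages/APCs 24.03%, MuSCs 24.38% and NK/T cells 28.05%. Below the limit of 50 cells, 40 day 5 MuSCs had 33.74% and 29 cells of the day 5 label B cells 22.73%. That label had 0 cpm over the B-cell markers and 20153 cpm over the dendritic ones. Exact Clopper-Pearson intervals (95%) were narrow, as 15.01 to 15.05% for day 0 FAPs and 26.45 to 26.51% for day 2 FAPs, but they cover counting error only.

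**Figure D1:**
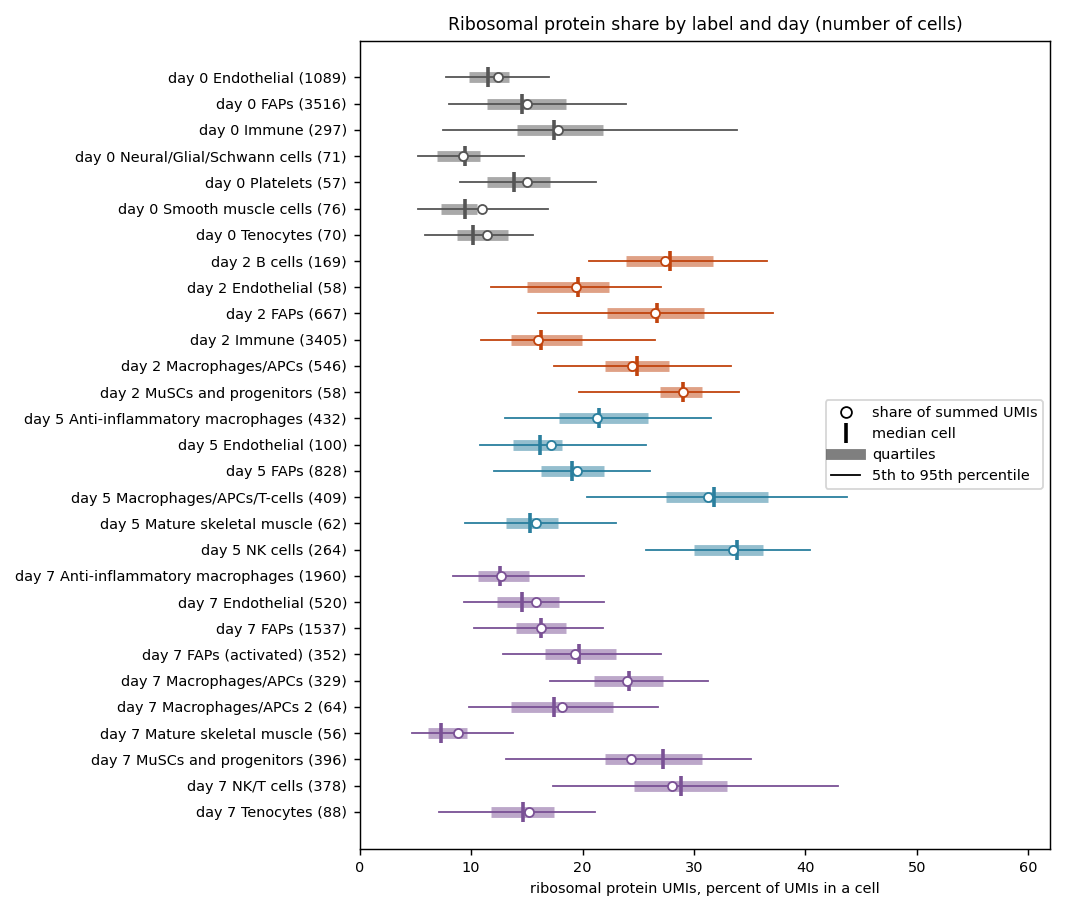
Ribosomal protein share of UMIs (x axis, percent) for each of the 29 label and day combinations with at least 50 cells (y axis, cell number in parentheses). Circles are the share of summed UMIs, ticks the median cell, thick bars the quartiles over cells and thin lines the 5th to 95th percentile; the NK label of day 5 stands at 33.52% and mature muscle of day 7 at 8.84%.

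Single cells within a label spread widely. The quartiles of FAP cells were 11.42, 14.60 and 18.51% at day 0 and 22.20, 26.68 and 30.91% at day 2, so the upper quartile of the former lay below the lower quartile of the latter. Over the cells of a label, Spearman's correlation of share and depth ranged from −0.48 to 0.58 (day 0 smooth muscle cells). The lowest value was that of the day 2 immune label, where the share went from 20.2% in the shallowest quartile of cells to 14.2% in the deepest. Across the 29 combinations, the share of other TOP mRNAs followed that of the members, with Pearson's r of 0.96, 0.99, 0.995 and 0.95 within days 0, 2, 5 and 7 and 0.83 over all days. This is a description over 7, 6, 6 and 10 labels that share a library within each day. The list of other TOP mRNAs includes Fau and Gnb2l1, which also belong to the ribosome. The correlation with biogenesis factors was 0.26, 0.58, 0.73 and 0.77 within those days and 0.47 over all. With mitochondrial ribosomal protein genes it was −0.68, 0.42, −0.59 and −0.38 within days and −0.20 over all.

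Of the 3 classes present on every day, FAPs differed most between days 0 and 2. Between day 0 and day 2 their ribosomal protein share went from 15.03% to 26.48%, a log2 ratio of 0.82 (0.81 to 0.82). The sum of macrophage markers in these cells also differed, at 40.7 cpm at day 0 and 2131 cpm at day 2, and its part in the change was not tested. Of 86 members measured (at least 20 UMIs over both days), 57 were at least 1.5-fold higher and 0 at least 1.5-fold lower, against 18.1% and 27.7% of all 12995 genes measured. Among the 3290 genes with at least 1000 UMIs over both sides, called abundant genes below, the shares were 13.1% and 25.4%. The median member stood at 0.78 on the log2 scale and the median gene at −0.17. In all, 71 members were above and 15 below their day 0 level, the latter by less than 1.5-fold. At day 5 the FAP share was 19.51% (log2 ratio 0.38, 0.37 to 0.38), with 24 members higher and 6 lower of 86 against 22.6% and 22.5% of genes (13.3% and 26.5% of the abundant ones). At day 7, with the label FAPs (activated) included, it was 16.73% (0.15, 0.15 to 0.16), and 6 of 87 members were higher (17.5% of genes) and 19 lower (20.8%; of the abundant genes 13.4% and 17.8%). That count of lower members is close to both backgrounds, and the count of higher ones is below them. Without the 20 most abundant other genes, the day 7 ratio was 0.09. These 3 comparisons share the day 0 cells.

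Endothelial cells stood less far above day 0 than FAPs at day 2 and farther at days 5 and 7, differences that were not tested. Their share was 12.37% at day 0, 19.38% at day 2 (log2 ratio 0.65, 0.64 to 0.66; 58 cells), 17.14% at day 5 (0.47; 100 cells) and 15.85% at day 7 (0.36; 520 cells). Macrophage marker RNA in this label was 69.9 cpm at day 0 and 8117 cpm at day 2, of which Lyz2 made up 7424 cpm, more than the 2362 cpm of the label's own 4 endothelial markers at day 2. It was 156 cpm at day 5 and 2171 cpm at day 7. FAP markers in the label summed to 8208 cpm at day 0, more than its 3631 cpm of endothelial markers. They summed to 291, 1060 and 702 cpm at days 2, 5 and 7. The part of macrophage and FAP marker RNA in these shares and ratios was not tested. At day 2, 52 of 84 members were higher and 2 lower (13.0% and 35.7% of genes), at day 5 29 were higher and 6 lower (26.8% and 27.0%), and at day 7 29 of 85 were higher and 16 lower (14.2% and 21.9%). Of genes with at least 1000 UMIs the shares were 18.2% and 30.7% at day 2, 15.1% and 33.1% at day 5 and 14.8% and 20.4% at day 7. At day 5 the count of higher members, 29 of 84, is close to the background of all genes measured and above that of abundant ones. The count of lower members at day 7, 16 of 85, is not above either background.

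Immune labels as a class did not share the day 2 step. Their share was 17.81% at day 0 and 17.26% at day 2 (log2 ratio −0.05), with 2 of 86 members higher and 14 lower (14.8% and 37.5% of genes), and that small decrease changed sign under 3 other settings (0.02 with every cell weighted equally, 0.19 in cells of 2000 to 6000 UMIs, and 0.04 without the 20 most abundant other genes). At day 5 it was 26.22% (0.56; 30 higher and 5 lower of 84; 24.7% and 25.2%), and at day 7 15.63% (−0.19; 0 higher and 24 lower of 85; 15.5% and 28.2%). The day 7 ratio was −0.09 without the 20 most abundant other genes and −0.01 in cells of 2000 to 6000 UMIs. Of genes with at least 1000 UMIs the shares higher and lower were 20.4% and 17.4% at day 2, 24.9% and 21.4% at day 5 and 18.2% and 12.5% at day 7. The 14 lower members of day 2 are below the share of all genes and near that of abundant ones. The 24 lower members of day 7 are near the share of all genes and above that of abundant ones. The labels in this class differ by day, with a single immune label at day 0, mostly the main immune label at day 2, NK and T-cell labels among those of day 5, and mostly anti-inflammatory macrophages at day 7. A change in the mix of cell types and a change within cells therefore cannot be told apart here.

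A label in common does not mean the same cells at both days. In Macrophages/APCs, Lyz2 was at 9952 cpm at day 2 and 1604 cpm at day 7. In anti-inflammatory macrophages the macrophage markers summed to 13810 cpm at day 5 and 34831 cpm at day 7, and the neutrophil markers to 608 and 8.50 cpm. Macrophage markers were at 1481 cpm at day 2 and 4113 cpm at day 7 in MuSCs. In mature muscle they were at 138 cpm at day 5 and 2419 cpm at day 7. In tenocytes, FAP markers summed to 72568 cpm at day 0 and 30606 cpm at day 7, and tenocyte markers to 17625 and 8897 cpm. The part of these marker differences in the values that follow was not tested. Macrophages/APCs had 24.41% at day 2 and 24.03% at day 7 (log2 ratio −0.02; 1 member higher and 19 lower of 84, against 16.1% and 19.2% of genes and 7.62% and 18.5% of the abundant ones). That count of lower members is close to both backgrounds. Anti-inflammatory macrophages had 21.26% at day 5 and 12.66% at day 7 (−0.75; 3 higher and 36 lower of 85; 22.6% and 31.0%; abundant genes 29.6% and 16.8%). MuSCs went from 29.00% at day 2 (58 cells) to 24.38% at day 7 (396 cells), a log2 ratio of −0.25 with 0 members higher and 30 lower of 84 (37.6% and 17.8% of genes; abundant genes 22.0% and 26.7%). Day 2 MuSCs were also the deepest label, with a median of 34387 UMIs against 5881 at day 7. The ratio was −0.12 with every cell weighted equally, and it turned to 0.70 in cells of 2000 to 6000 UMIs, where only 1 day 2 cell remained. Tenocytes went from 11.40% at day 0 to 15.22% at day 7 (0.42; 34 higher and 11 lower of 83; 27.1% and 16.1%; abundant genes 34.3% and 20.4%), and mature muscle from 15.84% at day 5 to 8.84% at day 7 (−0.84; 4 higher and 41 lower of 84; 25.2% and 27.8%; abundant genes 25.6% and 24.4%).

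**Figure D2:**
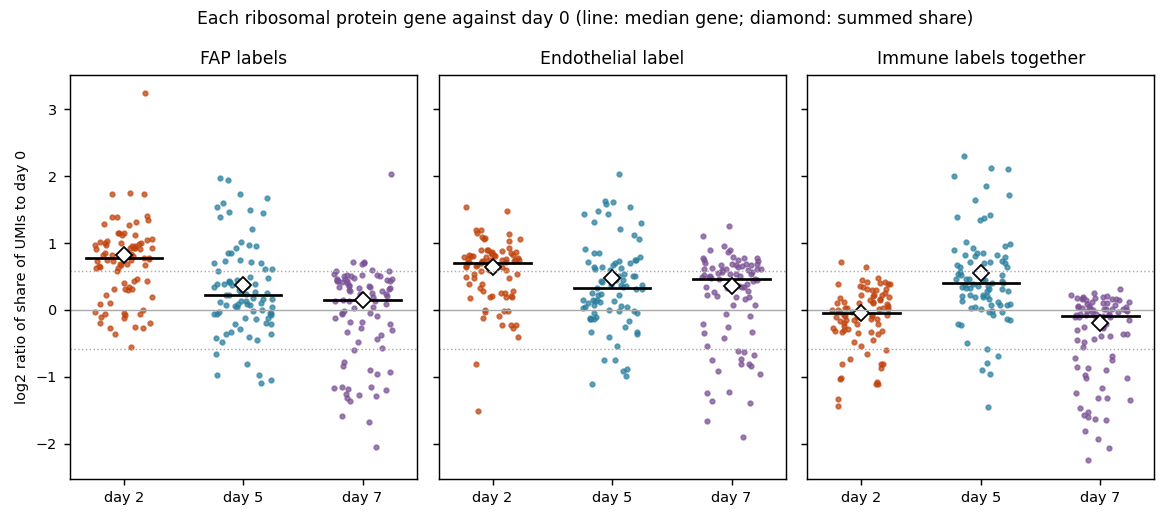
Log2 ratio of each member's share of UMIs to day 0 (y axis) at days 2, 5 and 7 (x axis) in FAP, endothelial and immune labels; points are genes with at least 20 UMIs over both days, black lines the median member, diamonds the summed share and dotted lines 1.5-fold. At day 2 the FAP and endothelial medians stand at 0.78 and 0.71 and the immune one at −0.05, and at day 7 a tail of genes lies below −1 in all 3 panels.

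Labels were also compared within 1 day's table, where age, sex and preparation are shared. At day 7, NK/T cells had 28.05% and anti-inflammatory macrophages 12.66% (log2 ratio 1.15, 1.14 to 1.15), and 79 of 85 members were at least 1.5-fold higher with 0 lower, against 38.1% and 25.9% of genes and 31.1% and 32.3% of the abundant ones. MuSCs of day 7 exceeded FAPs (0.58), with 42 members higher and 1 lower of 85 (29.2% and 25.9%; abundant genes 24.1% and 30.8%), and Macrophages/APCs exceeded anti-inflammatory macrophages (0.93; 74 higher and 1 lower of 85; 23.4% and 24.7%; abundant genes 19.2% and 26.2%). Mature muscle of day 7 was below FAPs (−0.88; 2 higher and 69 lower of 86; 24.0% and 51.1%; abundant genes 16.0% and 67.6%). At day 2, FAPs exceeded the main immune label (0.73; 56 higher and 1 lower of 87; 38.9% and 20.7%; abundant genes 22.3% and 27.5%), and MuSCs exceeded FAPs by only 0.13 (7 higher and 1 lower of 86; 28.7% and 38.9%; abundant genes 30.0% and 40.2%). The gap between FAPs and the main immune label depends on depth. In cells of 2000 to 6000 UMIs their shares were 26.70% (69 cells) and 20.32% (643 cells), against 26.48% and 16.02% in all cells. Member counts within a day were not repeated at that depth. At day 5, NK cells exceeded FAPs (0.78; 55 higher and 3 lower of 86; 22.2% and 43.7%; abundant genes 26.8% and 43.6%). Activated FAPs of day 7 exceeded the other FAPs by 0.25, with 1 member higher and 1 lower of 86 (10.6% and 27.2%; abundant genes 8.96% and 18.7%). At day 2 the B-cell label, with its dendritic markers, exceeded Macrophages/APCs by 0.17, with 0 of 84 members past 1.5-fold in either direction (13.2% and 26.3% of genes; abundant genes 8.14% and 18.9%).

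Among the members with single roles, the stalk proteins, which recruit the elongation factors to the large subunit, did not move as a block. In FAPs, Rplp0 was at 2855, 5355, 1629 and 3993 cpm at days 0, 2, 5 and 7, Rplp1 at 2635, 6549, 5105 and 2218 cpm, and Rplp2 at 1899.9, 3817, 3159 and 1485 cpm. All 3 were high at day 2, but at day 5 Rplp0 was below its day 0 level (log2 ratio −0.81, −0.85 to −0.77) while Rplp1 (0.95, 0.93 to 0.98) and Rplp2 (0.73, 0.70 to 0.77) were above it. Endothelial cells showed the same split at day 5, with Rplp0 at −0.75, Rplp1 at 1.06 and Rplp2 at 1.12. The coding length of Rplp0 is 951 bases and that of Rplp1 342 bases, a property taken up below.

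Rpsa, the small-subunit protein also known as the laminin receptor, was at 1206, 4005, 1483 and 1795 cpm in FAPs, a log2 ratio of 1.73 (1.71 to 1.76) at day 2. In endothelial cells it was at 684.8, 1993, 1240.0 and 1633 cpm, and its day 2 ratio of 1.54 was the highest there. Rpl12, which sits at the base of the stalk, was at 836, 2809, 939.8 and 1365 cpm in FAPs, with the highest day 2 ratio of any canonical member (1.75, 1.72 to 1.78), and at 501.4, 1402, 712.7 and 1082 cpm in endothelial cells (1.48). In MuSCs Rpl12 was at 3391 cpm at day 2 and 2031 cpm at day 7. Rpl12 shares no 75-base stretch of its last 400 bases with another annotated gene, whereas Rpsa shares 80.1% of them.

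Rps6, the target of the S6 kinases, was at 2180.0, 3849, 1598 and 2738 cpm in FAPs. Rpl5 and Rpl11, which together with 5S RNA can bind Mdm2 and thereby stabilise p53, were at 755.8, 1344, 832.1 and 911.5 cpm and at 1846, 2898, 1768 and 1735 cpm. These 3 had day 2 ratios of 0.82, 0.83 and 0.65, near that of the summed share, and Rps6 was lower at day 5 (−0.45, −0.49 to −0.40).

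By summed UMIs the most abundant members were Rpl41 (647192), Rpl13 (565060), Rpl32 (547795), Rps19 (547082) and Rps23 (543321). Rpl41, which codes for a peptide of the large subunit from only 75 coding bases, was at 4435, 9163, 12116 and 3213 cpm in FAPs, highest at day 5. Rpl13 was at 4672, 6420.5, 3828 and 4567 cpm and Rpl32 at 2889.8, 6263, 2869 and 4021 cpm, both highest at day 2. In FAPs, Rps18 was at 2811 and 2694 cpm (−0.06) and Rps2 at 2009 and 1974 cpm (−0.03) at days 0 and 2. In the immune labels together the day 2 ratios were −1.11 and −0.81. The value of Rps18 depends on how reads were assigned, because the pseudogene symbol Rps18-ps3 held 3.33% of the pair's UMIs in FAPs at day 0 and 17.7% at day 2. With those UMIs added, the Rps18 ratio was 0.17 (0.15 to 0.19) in FAPs and −0.88 in immune labels. The lowest canonical members were Rpl15 (32176 UMIs), Rpl10 (19584), Rps27 (12672), Rpl27 (4452) and Rps12 (3811).

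The make-up of the ribosomal protein pool, meaning each gene's share of the members' UMIs, separated the days far more than the cell types. Of the variance of the log2 pool shares of the 77 canonical genes over the 29 combinations, 83.7% lay between the day means. Different labels of 1 day correlated with a median Pearson's r of 0.98 (96 pairs), the same class at different days with 0.877 (61 pairs), and different classes at different days with 0.924 (249 pairs). Genes and pairs are not independent, so these values describe the tables. A class here joins all immune labels, so a same-class pair can set NK cells against macrophages. The same-class and different-class pairs are also not matched for days. The values of 0.877 and 0.924 therefore do not show whether a class resembles itself more or less than other classes. The standard deviation of the log2 pool ratio between labels of 1 day was 0.27 in the median pair, and 0.69 between days within a class.

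Genes with short coding regions took more of the pool at day 5 and genes with long ones less. As geometric means over labels, Rps28 (207 coding bases) went from 0.689% of the pool at day 0 to 1.92% at day 5, Rps29 (168 bases) from 1.71 to 3.90%, and Rpl41 from 3.33 to 5.51%. Rpl3 (1209 bases), a large-subunit protein that reaches towards the peptidyl transferase centre, went from 1.15 to 0.383%. Labels of day 0 and day 5 did not overlap for these 4 genes. In all they did not overlap for 38 of the 77 canonical genes (14 above and 24 below day 0). Pool shares of a label sum to a fixed total, so a rise of some genes lowers others, and these counts have no background over all genes. In cpm, 18 of the 77 did not overlap (18 above and 0 below day 0), against 4.38% of the 3833 genes with at least 1000 UMIs. The pool shares of day 2 did not overlap with day 0 for 16 genes and those of day 7 for 24 (in cpm 22 and 2, against 2.61% and 0.592% of such genes). Rps28 took 0.608 to 0.817% of the pool over the 7 labels of day 0 and 1.76 to 2.12% over the 6 of day 5, and Rpl3 1.07 to 1.22% and 0.141 to 0.526%. In FAPs, Rps28 was at 1073, 1039, 4139 and 457 cpm at days 0, 2, 5 and 7, Rps29 at 2147, 2444, 6519.7 and 925.1 cpm, Rpl3 at 1795, 2968, 915.5 and 1914 cpm, and Rpl4 (1257 bases) at 1517, 2452, 711.8 and 1752 cpm.

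Over the 77 genes, Spearman's correlation of the pool shift with coding length was −0.70 at day 5, 0.10 at day 2 and 0.38 at day 7. The 27 shortest genes (75 to 405 bases) made up 34.9, 33.7, 48.1 and 27.5% of the pool at days 0, 2, 5 and 7, and the 26 longest (576 to 1257 bases) 30.7, 31.4, 22.0 and 34.4%. At day 5, 22 of the 27 shortest and 3 of the 26 longest were above day 0. Other genes within the members' range of coding lengths (75 to 1257 bases) also had negative correlations of the day 5 ratio with length. Spearman's correlation was −0.08 in FAPs (4148 genes), −0.12 in endothelial cells (2459) and −0.07 in immune labels (2446), and −0.25, −0.28 and −0.24 among those with at least 1000 UMIs, where the canonical members had −0.69, −0.62 and −0.71. FAP medians at day 5 were 0.15 for other genes up to 300 bases, −0.20 from 300 to 600, −0.35 from 600 to 1200 and 0.11 above 1200, and over all lengths the correlation was 0.29. The difference between members and other genes was not tested. The day 5 library is also the shallowest, with a median of 2018 UMIs per cell, and the part of library preparation, depth or injury stage in this shift was not tested.

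**Figure D3:**
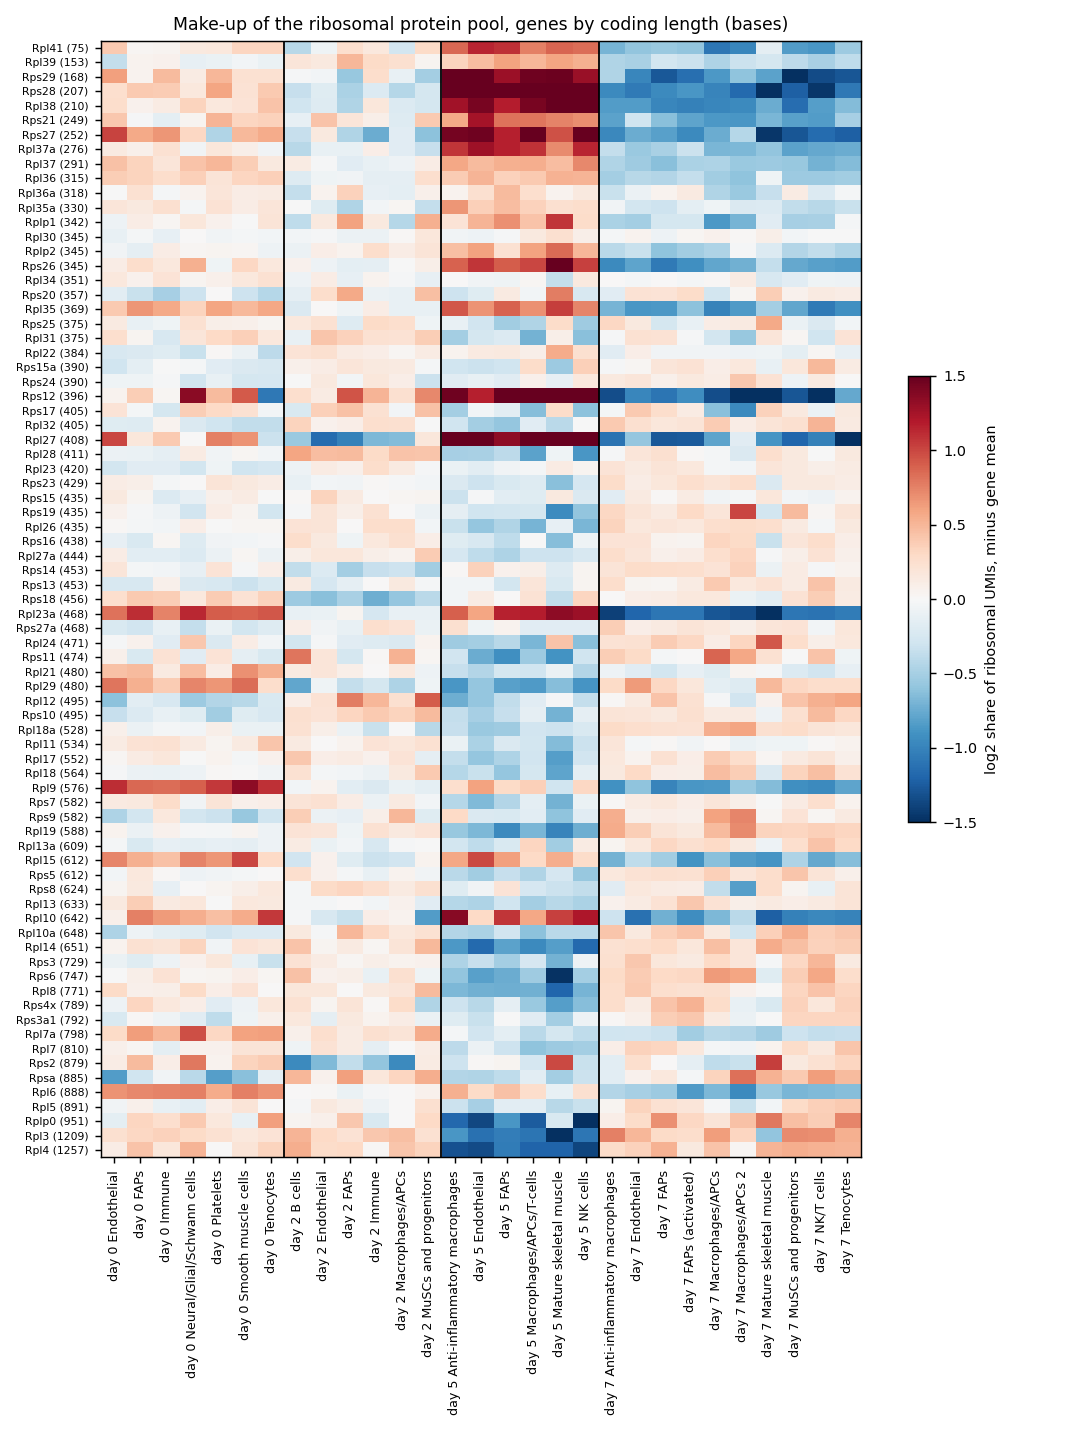
Log2 share of ribosomal protein UMIs, minus the gene's mean, for the 77 canonical genes (rows, ordered by coding length in bases, in parentheses) over the 29 label and day combinations (columns; black lines part the days; colours saturate at ±1.5). The colours change mainly at the day borders, with short genes such as Rps28 and Rps29 red and Rpl3 and Rpl4 blue at day 5 in all 6 labels.

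**Figure D4:**
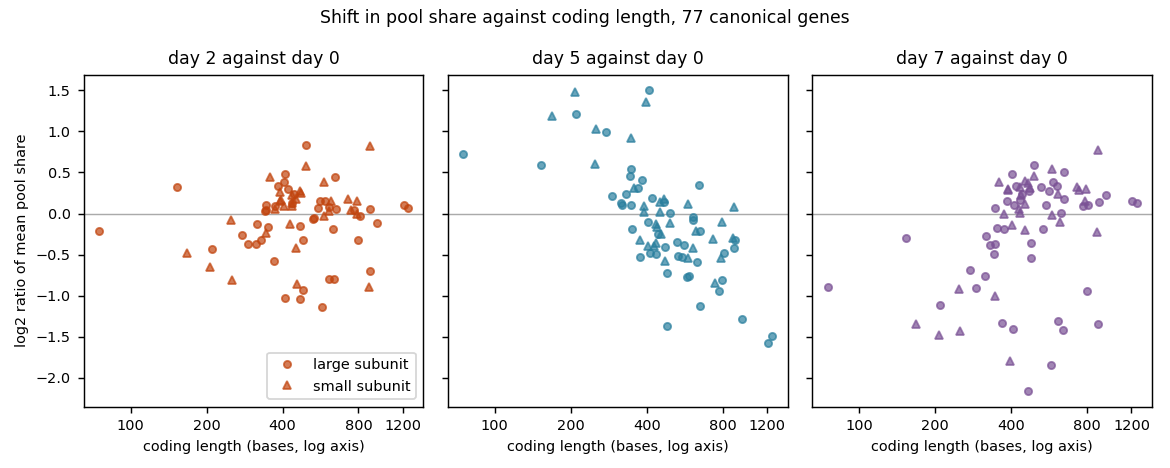
Log2 ratio of each canonical gene's mean pool share to day 0 (y axis) against its coding length (x axis, bases, log scale) at days 2, 5 and 7; circles are large-subunit and triangles small-subunit genes. Only at day 5 do the points fall along a descending line (Spearman −0.70, 77 genes), and at day 7 a group of genes lies below −0.5 at many lengths.

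At day 7 another set was low in FAP, endothelial and immune classes. In the label FAPs, Rpl23a was at 695.4, 584.5, 932.3 and 164.1 cpm at days 0, 2, 5 and 7 (day 7 log2 ratio with activated FAPs included −2.04, −2.11 to −1.98) and Rpl9 at 498.2, 434.4, 434.4 and 149.6 cpm (−1.68). Day 7 ratios of Rpl23a were −1.66 in endothelial cells and −2.25 in immune labels. The same table gave low values of Rps12, Rpl27 and Rps27. These members have near-identical copies elsewhere in the genome. In the GENCODE M21 gene models, 100% of the 75-base stretches in the last 400 bases of Rps12, Rpl9 and Rpl10 occur in at least 1 other gene, and 98.5% of those of Rps27, 87.1% of Rpl27 and 85.3% of Rpl23a. Pseudogene symbols with the ending -ps, outside the member set, held many such reads. Rps12-ps3 held 52632 UMIs, or 93.2% of the pair with Rps12, Rpl27-ps3 77.4%, Rpl10-ps3 69.5%, Rpl23a-ps3 48.5% and Rpl9-ps6 39.4% of theirs. Levels of these genes can depend on how reads that fit several places were assigned, and they are uncertain. Together the 16 pseudogene symbols took 0.269, 0.247, 0.757 and 0.104% of all UMIs at days 0, 2, 5 and 7. Over the 77 genes the pool shift correlated with the share of shared stretches by −0.31 at day 2, −0.02 at day 5 and −0.32 at day 7 (Spearman). With the gene's summed UMIs the correlation was 0.36, −0.10 and 0.53 at these days, and with transcript length 0.28, −0.46 and 0.42. The part of any of these features in the shift was not tested.

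Within a day, single members still differed between cell types in pool share. Rps2 was highest in mature muscle, at 1.91% of the pool at day 5 and 1.97% at day 7, which is 0.97 and 0.94 above the mean of that day's labels on the log2 scale. Rps19, mutated in Diamond-Blackfan anaemia, reached 4.45% in the day 7 Macrophages/APCs 2 label (64 cells), 0.74 above that day's mean. Rpl12 was highest at day 2 in MuSCs (1.17%, 0.45 above the mean), and Rplp0 at day 5 in mature muscle (1.30%, 0.84 above the mean). Over the 29 combinations, the ratio of the highest to the lowest pool share was 32.8 for Rps12, 16.4 for Rpl27, 12.2 for Rps28, 11.6 for Rpl3, 10.8 for Rps29, 10.5 for Rps27, 8.33 for Rpl23a and 7.46 for Rps26, and the highest value of each stood at day 5 except that of Rpl3, which stood at day 7. Some of these ratios rest on very few counts. The lowest Rps12 share came from 1 UMI in day 7 Macrophages/APCs 2 and the highest from 13 in day 5 mature muscle. The lowest share of Rpl27 came from 7 UMIs in day 7 tenocytes, and that of Rps27 from 9 in day 7 mature muscle.

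Among the paralogs, mature muscle stood apart in Rpl3l, the striated-muscle paralog of Rpl3 that can take its place in the large subunit. In mature muscle Rpl3l made up 48.5% (36.0 to 61.1%) of the pair at day 5, from 32 UMIs against 34, and 40.1% (35.4 to 45.1%) at day 7, from 165 against 246. Its level was 209.6 cpm at day 5 and 379.0 cpm at day 7. In the day 0 Neural/Glial/Schwann label it was 13.5% (10.2 to 17.2%), where muscle fibre genes also reached 31890 cpm; the part of these fibre transcripts was not tested. In the other 26 combinations it was at most 0.442%, and in day 7 MuSCs 0 UMIs, which allows up to 1.07 cpm (3 counts), stood against 10729 of Rpl3. Of mature muscle cells 37.1% at day 5 and 73.2% at day 7 had an Rpl3l UMI, against 0.586% of day 7 FAPs, at median depths of 1608, 5728 and 7669 UMIs. Rpl3 itself was low in mature muscle, at 222.7 cpm at day 5 and 565.0 cpm at day 7, against 915.5 and 1914 cpm in FAPs.

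Rpl22l1, a paralog of the RNA-binding large-subunit protein Rpl22, was present at a level near its partner's. It made up 26.8% of the pair in the day 2 B-cell label and 61.1% (59.9 to 62.4%) in activated FAPs of day 7, with a median of 46.6%. In FAPs it was 53.9, 50.5, 55.7 and 56.7% at days 0, 2, 5 and 7, and in MuSCs 56.2% at day 2 and 60.5% at day 7. Labels named for macrophages or antigen-presenting cells stood at 38.1% in day 2 and 35.3% in day 7 Macrophages/APCs, 32.9% and 44.0% in anti-inflammatory macrophages of days 5 and 7, 27.1% in Macrophages/APCs 2 and 47.2% in day 5 Macrophages/APCs/T-cells. The day 2 immune label, which had the most macrophage marker RNA of that day (30579 cpm), stood at 43.3%. Among labels with at least 50 cells its level was highest in day 2 MuSCs (2516 cpm), followed by day 5 NK cells (2142 cpm) and day 7 MuSCs (2093 cpm), while the 40 day 5 MuSCs had 3086 cpm from 392 UMIs. At day 7 it was 0.51 (0.46 to 0.56) higher in activated than in other FAPs on the log2 scale, where the summed share differed by 0.25.

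Rpl36al, which codes for a protein nearly identical to that of Rpl36a, made up 24.9, 21.7, 18.5 and 26.6% of the pair in FAPs and 45.6% and 56.8% in mature muscle at days 5 and 7. In the main immune label of day 2 it was 40.4%, and at day 7 40.4% in anti-inflammatory macrophages and 40.6% in Macrophages/APCs. Rps27l, a p53-induced paralog of Rps27, made up 62.8 to 96.9% of the pair except in day 5 NK cells (25.1%, 21.3 to 29.2%) and day 5 Macrophages/APCs/T-cells (29.6%, 26.4 to 32.9%). The pair leaves out Rps27rt, the near-copy of Rps27, so these shares do not make Rps27l the main form. Day 0 FAPs held 7892 UMIs of Rps27l, 2336 of Rps27 and 5546 of Rps27rt, and day 5 NK cells 121, 361 and 1401. In NK cells of day 5 Rps27l was at 272.6 cpm and Rps27 at 813.2 cpm, and in FAPs of that day at 629.5 and 280.1 cpm, so Rps27l was lower in NK cells (log2 ratio −1.21, −1.49 to −0.94) while the summed share was higher by 0.78. At day 7 NK/T cells had 85.8%. Rps27 shares 98.5% of its stretches with other genes and was low at day 7 (log2 ratio to day 0 of −1.25 in FAPs).

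Rpl39l, a paralog of Rpl39 known from male germ cells, was rare, and had the highest day 2 ratio of any member in FAPs. It was at 2.88, 27.3, 9.60 and 13.2 cpm at days 0, 2, 5 and 7, from 47, 251, 28 and 163 UMIs, a log2 ratio of 3.24 (2.79 to 3.73) at day 2. Cells with an Rpl39l UMI were 1.14% of day 0 FAPs, 15.7% of day 2 FAPs and 0.352% of day 2 immune cells, at median depths of 4452, 12321 and 9665 UMIs. These shares of cells were not thinned to 1 depth, while the cpm is a ratio to all UMIs. Activated FAPs of day 7 had 2.84 cpm against 13.2 cpm in other FAPs (6 against 163 UMIs; log2 ratio −2.22, −3.69 to −1.07). Tenocytes of day 7 had the highest value, at 35.0 cpm from 26 UMIs, or 2.07% of the pair with Rpl39.

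**Figure D5:**
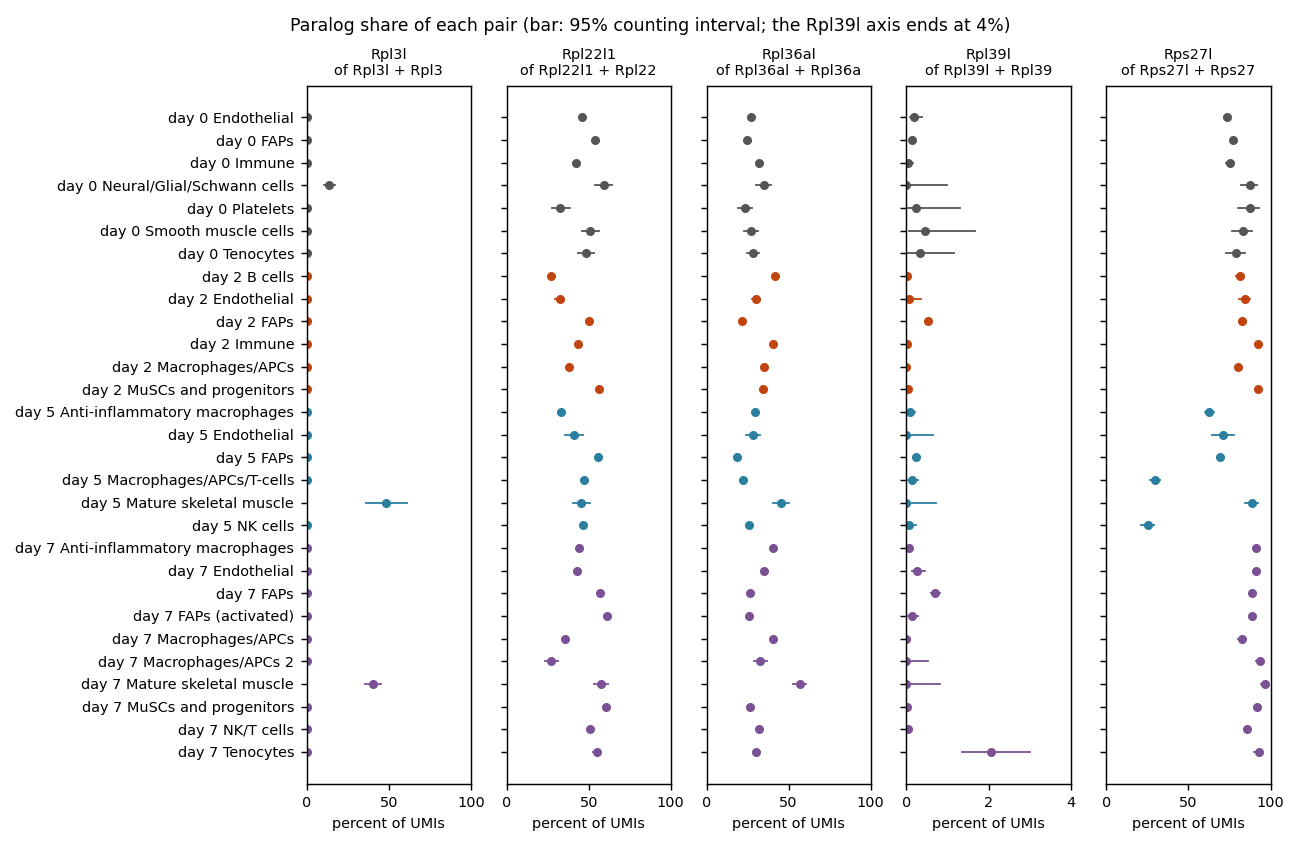
Share of each paralog in the UMIs of its pair (x axes, percent; the Rpl39l axis ends at 4) in the 29 label and day combinations (y axis), with 95% counting intervals as bars. Rpl3l stands at 40.1 and 48.5% in mature muscle and lies near 0 in most labels, Rps27l at 25.1 and 29.6% in day 5 NK and Macrophages/APCs/T-cells, and Rpl39l stays at or below 2.07%.

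By assigned UMIs, the remaining paralogs ranged from rare to more abundant than their partner. Rps27rt made up 62.9 to 83.1% of its pair with Rps27 and stood at 339.4, 229.9, 1078 and 112.0 cpm in FAPs. As a near-copy of Rps27, its share can depend on how reads that fit both genes were assigned, and it is uncertain. Rpl6l, annotated as a processed pseudogene, made up 30.4 to 42.2% of the pair with Rpl6, Rpl10l at most 3.19% of its pair and Rpl7l1, a paralog of Rpl7, 0.431 to 5.38%. The part of read assignment in the share of Rpl6l was not tested. Rpl7l1 was at 45.9, 43.3, 22.3 and 44.9 cpm in FAPs and at 135.5 cpm in day 2 MuSCs (log2 ratio 1.64, 1.41 to 1.88, to FAPs of that day). Rps19bp1 was at 37.3, 34.6, 29.1 and 33.5 cpm in FAPs and 152.7 cpm in day 2 MuSCs (2.14, 1.90 to 2.38).

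Other genes of the pathway are given beside the shares of all genes measured that were at least 1.5-fold higher or lower. In FAPs of day 2, where these were 18.1% and 27.7%, 9 of 21 other TOP mRNAs were higher and 0 lower (median 0.49), among them Eef1a1, the elongation factor that delivers tRNA (3765 to 7800 cpm, log2 ratio 1.05), and Tpt1 (2704 to 4761 cpm, 0.82). Of 34 biogenesis factors 2 were higher and 9 lower (median −0.37), the latter close to the share of all genes, and the nucleolar proteins nucleolin (Ncl, −0.26) and fibrillarin (Fbl, −0.11, −0.24 to 0.02) stayed within 1.5-fold, while nucleophosmin (Npm1), which is also a TOP mRNA, was at 0.84. Myc, which drives transcription of both groups, was lower (153 to 72.1 cpm, −1.09, −1.22 to −0.97), and 4 of 26 genes of the mTORC1 and Myc list were higher and 4 lower. Larp1 (−0.20, −0.44 to 0.05) and Rps6kb1 (−0.34), which codes for an S6 kinase, stayed within 1.5-fold. Of the cell cycle genes, 18 of 20 were higher and 1 lower (median 3.21), and of 77 mitochondrial ribosomal protein genes 6 were higher and 1 lower.

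At day 5 in FAPs (22.6% and 22.5% of all genes), 4 other TOP mRNAs of 21 were higher and 4 lower, 0 of 34 biogenesis factors higher and 13 lower, and 2 of 77 mitochondrial ribosomal protein genes higher and 26 lower. The TOP counts there are close to the share of all genes. Endothelial cells of day 2 (13.0% and 35.7% of genes) had 11 of 21 other TOP mRNAs higher and 0 lower (median 0.62), with Eef1a1 at 1.19. At day 7 (14.2% and 21.9%), 8 of 34 biogenesis factors were higher there and 3 lower, with Npm1 at 1.06, Ncl at 0.76 and Fbl at 1.10, and 19 of 20 cell cycle genes were higher. In immune labels of day 2 (14.8% and 37.5%), 0 of 34 biogenesis factors were higher and 23 lower (median −0.70).

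MuSCs and FAPs had nearly the same members' share at day 2 and different levels of biogenesis factors. At day 2, where the members' share was 0.13 higher in MuSCs and 28.7% of all genes were higher and 38.9% lower, 33 of 34 biogenesis factors were higher and 0 lower (median 1.89), with Ncl at 1220 against 188 cpm (2.70), Fbl at 344 against 82.6 cpm (2.06) and Npm1 at 3021 against 815 cpm (1.89). Of 76 mitochondrial ribosomal protein genes 61 were higher and 0 lower (median 1.25). From day 2 to day 7 in MuSCs (37.6% of genes higher and 17.8% lower), 26 of 34 biogenesis factors were lower and 1 higher (median −0.97), and 43 of 76 mitochondrial ribosomal protein genes were lower and 0 higher. In NK/T cells of day 7 against anti-inflammatory macrophages (38.1% and 25.9%), 19 of 21 other TOP mRNAs and 30 of 34 biogenesis factors were higher and 0 lower, with Npm1 at 1.85 and Ncl at 1.69. In mature muscle of day 7 against FAPs (24.0% and 51.1%; abundant genes 16.0% and 67.6%), 52 of 76 mitochondrial ribosomal protein genes were higher and 0 lower (median 1.00), while 13 of 21 other TOP mRNAs were lower and 1 higher (median −0.80), a count of lower genes near both backgrounds.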

How the data were processed

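Single-cell libraries of sorted muscle cells were analysed from 4 deposited tables, 1 per day, with both day 0 runs in 1 table. The deposited UMI counts are raw counts per gene and barcode, and the submitters' processing notes list mm10 (GRCm38) as build and, as tools, Seurat 2.3.4 and Cell Ranger 2 beside R 3.6.2. The deposited natural log values are ln of 1 plus 10000 times the count over the barcode's total, as found from the values; they were used only for the setting that weights cells equally. The mitochondrial fraction of UMIs per barcode was computed by the authors, per the file headers, and set no filter here. Cell types are the authors' labels; doublets were not called, and how they were treated is not given in the sources used here. A further 8 metadata columns were not used. The day was taken from the labels, since the injury column reads day 0 in all tables.

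Counts were summed per label and day (at least 50 cells) and divided by summed UMIs. Intervals are exact Clopper-Pearson at 95%, or an exact binomial split for log2 ratios, and they cover counting error only. A gene counted as measured with 20 UMIs over both sides and as called past 1.5-fold; a count of 0 was set to 3 counts. No test between days was possible. Classes group labels: FAPs with FAPs (activated), and all immune labels. Coding lengths and shared 75-base stretches come from GENCODE M21, and start windows from RefSeq. Python 3.11.15, numpy 2.4.6, scipy 1.17.1, pandas 2.3.3 and matplotlib 3.10.9 were used, and the ratio code was tested on simulated data.

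Named members are the paralogs, Rps19bp1, the 5 highest and 5 lowest canonical genes by UMIs, the 8 with the widest range in pool share, the extremes of each between-day comparison and 7 genes with single roles; members named for a within-day difference were chosen after their values were seen. The members and lists were chosen with earlier results of these data known. Fau (5118 UMIs) and Gnb2l1 (118723), which also belong to the ribosome, fall outside the symbol rule and were counted among the other TOP mRNAs. A further gene of the lists is not reported here and entered no list or alternative. Alternatives covered the weight of cells, depth, the total, the member set, the fold and the minimum of UMIs.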

Additional observations from a re-analysis of the deposited data

Results flagged for a closer look

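The log2 ratio of the members' share to day 0 differed in sign between cell classes in the main setting. At day 2 its log2 ratio to day 0 was 0.82 in FAPs and 0.65 in endothelial cells and −0.045 in immune cells. At day 7 it was 0.15, 0.36 and −0.19 in the same order. With 1 table per day the difference between classes was not tested, and the immune value at day 2 changed sign under 3 other settings.

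Barcodes that the authors gave no label stood outside all comparisons and still held member transcripts. The members took 18.6% of their UMIs at day 0 (14 barcodes), 26.0% at day 2 (21), 20.6% at day 5 (13) and 10.6% at day 7 (9). Pseudogene symbols of ribosomal proteins with the ending -ps, also outside the member set, took 0.269, 0.247, 0.757 and 0.104% of all UMIs at days 0, 2, 5 and 7. Rpl6l, annotated as a processed pseudogene, lacks that ending and is a member.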

How the results depend on the processing

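Counting intervals are so narrow here that most of the 14 between-day log2 ratios of the members' share left them under another setting, while 12 of 14 kept their sign under all 6 share settings. The exceptions were immune cells at day 2, which turned positive under 3 settings, and MuSCs in cells of 2000 to 6000 UMIs, where 1 day 2 cell was set against 205 of day 7; the cause of the first was not tested. With every cell weighted equally the ratio was 0.81 in FAPs at day 2, 0.34 in FAPs at day 5, 0.70 in endothelial cells at day 2, 0.37 in endothelial cells at day 7, 0.020 in immune cells at day 2, 0.62 in immune cells at day 5, −0.13 in immune cells at day 7, −0.12 in MuSCs, −0.89 in mature muscle, −0.052 in Macrophages/APCs and −0.72 in anti-inflammatory macrophages. In cells of 2000 to 6000 UMIs it was 0.82 in FAPs at day 2, 0.39 in FAPs at day 5, 0.18 in FAPs at day 7, 0.55 in endothelial cells at day 2, 0.56 in endothelial cells at day 5, 0.28 in endothelial cells at day 7, 0.19 in immune cells at day 2, 0.43 in immune cells at day 5, −0.015 in immune cells at day 7, 0.70 in MuSCs, 0.38 in tenocytes, −0.94 in mature muscle, −0.089 in Macrophages/APCs and −0.66 in anti-inflammatory macrophages. Without mitochondrially encoded genes in the total it was 0.38 in FAPs at day 5, 0.49 in endothelial cells at day 5, 0.57 in immune cells at day 5, −0.028 in Macrophages/APCs and −0.76 in anti-inflammatory macrophages. With canonical members only it was 0.82 in FAPs at day 2, 0.37 in FAPs at day 5, 0.16 in FAPs at day 7, −0.24 in MuSCs and −0.74 in anti-inflammatory macrophages. With Fau, Gnb2l1 and the pseudogene symbols added it was 0.81 in FAPs at day 2, 0.40 in FAPs at day 5, 0.14 in FAPs at day 7, 0.49 in endothelial cells at day 5, 0.34 in endothelial cells at day 7, 0.58 in immune cells at day 5, −0.20 in immune cells at day 7, −0.26 in MuSCs, −0.88 in mature muscle, −0.034 in Macrophages/APCs and −0.78 in anti-inflammatory macrophages. Without the 20 most abundant other genes it was 0.73 in FAPs at day 2, 0.31 in FAPs at day 5, 0.090 in FAPs at day 7, 0.69 in endothelial cells at day 2, 0.37 in endothelial cells at day 7, 0.042 in immune cells at day 2, 0.52 in immune cells at day 5, −0.093 in immune cells at day 7, −0.21 in MuSCs, 0.38 in tenocytes, −0.037 in Macrophages/APCs and −0.62 in anti-inflammatory macrophages. The number of members past a fold of 2 in either direction was 23 in FAPs at day 2, 14 in FAPs at day 5, 14 in FAPs at day 7, 12 in endothelial cells at day 2, 14 in endothelial cells at day 5, 8 in endothelial cells at day 7, 7 in immune cells at day 2, 13 in immune cells at day 5, 16 in MuSCs, 14 in tenocytes, 29 in mature muscle and 2 in Macrophages/APCs, fewer by construction than past 1.5-fold. Measured as a share of the members' UMIs, the number past 1.5-fold was 23 in FAPs at day 2, 15 in endothelial cells at day 2, 24 in endothelial cells at day 7 and 25 in tenocytes. In cells of 2000 to 6000 UMIs it was 50 in MuSCs. The share of all genes past these other limits was not computed, so these counts stand without a background and are not read as results about the members. Of 70 medians of related lists 7 moved with a minimum of 50 UMIs per gene, and of 260 paralog shares 76 left their interval in cells of 2000 to 6000 UMIs. With the UMIs of Rps18-ps3 added the day 2 ratio of Rps18 in FAPs turned from −0.061 to 0.17. That setting, the one with Fau and Gnb2l1, same-label and within-day comparisons, the background of genes with at least 1000 UMIs, the pair of Rpl6l and coding length over other genes, in all and within the members' range, were added after the data were seen. No paired analysis was possible because each day has 1 table, in which the day 0 runs are not told apart, and for the same reason no replicate could be left out. Depth limits day 5 most, where Rpl3l in mature muscle rests on 32 UMIs.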
